A study of Mus musculus with 18 samples.

Results

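The genes of the myelin sheath and of its transcriptional control described here, 9 in number, were followed through single-nucleus RNA profiles of mouse brain: Mbp, Mog, Mag, Mobp, Cnp, Mal, Opalin and Cldn11, which encode myelin proteins, and Myrf, the transcription factor gene. They were chosen by symbol, and are 9 of the 30905 genes in the deposited count tables. Nuclei came from the hippocampus (Hip) and the prefrontal cortex (PFC) of 9 male Kun Ming mice at 8 weeks of age, giving 18 libraries. Each region was taken from the same 3 mice of each state. GF mice were germ-free, SPF mice were specific pathogen-free, and the third state was CGF, in which mice raised germ-free were colonized by sharing a cage with SPF mice for the 4 weeks before sampling. The labels name no transgene or deletion, and both regions of a mouse carried the same mouse number. Levels of the 9 genes were read in nuclei taken as oligodendrocytes, those with at least 2 unique molecular identifiers (UMIs) of St18 and at most 1 UMI of Slc17a7, Gad1 and Gad2 together. This St18 gate held 10782 nuclei, 8658 of Hip and 2124 of PFC, with 720 to 1410 nuclei per Hip library and 145 to 364 per PFC library.

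Oligodendrocytes wrap axons with stacked, lipid-rich membrane, and the genes for its proteins are switched on together when a precursor matures. Mbp encodes the basic protein that holds the inner membrane faces together, and Mobp encodes a smaller basic protein of the same compartment. Mog and Mag encode immunoglobulin-type proteins of the outermost myelin surface and of the face that touches the axon. Cnp encodes a phosphodiesterase of non-compact myelin. Mal encodes a membrane-raft protein used in sorting to myelin, Cldn11 the claudin of the junctions between myelin turns, and Opalin a transmembrane protein of oligodendrocytes. Myrf is a membrane-bound transcription factor that cleaves itself, enters the nucleus and is needed for mature oligodendrocytes to make and keep myelin. St18 is a zinc-finger gene and Prr5l a gene for a partner of the mTORC2 kinase complex, and both are used here only as labels of the cells.

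The genes other than Mbp lay, on GRCm38, at chr17:37010743-37023398 for Mog, chr7:30899176-30914873 for Mag, chr9:120149707-120181484 for Mobp, chr11:100574904-100591729 for Cnp, chr2:127633226-127656695 for Mal, chr3:31149920-31164324 for Cldn11, chr19:41061710-41077113 for Opalin and chr19:10208272-10240748 for Myrf. Mobp overlapped Gm38642 on the same strand, so their reads may be shared. Cnp overlapped Dnajc7, and Mog overlapped Gm22388, on the opposite strand. Promoter windows from RefSeq (GRCm38.p6) were matched for 7 of the 9 genes. The 250 bases before the RefSeq start of the 5 genes that differed most often between groups are shown, so that their letters can be set beside those differences. Capitals mark a match to CTGGCAC or CTGGTAC, the letters bound by the MYRF protein, or to ACAANG, the core read by SOX factors such as SOX10, each searched on both strands. The RefSeq starts of Mobp and Cnp lie inside the gene spans given above.
Mog (chr17:37023399-37023648, minus strand): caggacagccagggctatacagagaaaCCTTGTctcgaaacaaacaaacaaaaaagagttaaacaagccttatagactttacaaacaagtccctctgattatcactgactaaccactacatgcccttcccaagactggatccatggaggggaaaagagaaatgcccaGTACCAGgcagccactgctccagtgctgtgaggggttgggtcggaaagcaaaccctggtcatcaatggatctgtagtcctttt
Mobp (chr9:120149492-120149741, plus strand): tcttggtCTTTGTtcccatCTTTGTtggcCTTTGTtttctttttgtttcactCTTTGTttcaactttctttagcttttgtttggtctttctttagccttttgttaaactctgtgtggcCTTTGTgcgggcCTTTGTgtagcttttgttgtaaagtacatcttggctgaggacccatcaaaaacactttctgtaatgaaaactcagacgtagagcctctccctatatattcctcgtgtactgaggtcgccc
Cnp (chr11:100574689-100574938, plus strand): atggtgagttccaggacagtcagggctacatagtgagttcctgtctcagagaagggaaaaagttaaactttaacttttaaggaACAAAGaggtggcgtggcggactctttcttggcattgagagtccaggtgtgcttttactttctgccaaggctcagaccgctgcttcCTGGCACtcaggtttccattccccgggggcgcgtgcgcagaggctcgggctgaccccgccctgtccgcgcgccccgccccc
Mal (chr2:127656696-127656945, minus strand): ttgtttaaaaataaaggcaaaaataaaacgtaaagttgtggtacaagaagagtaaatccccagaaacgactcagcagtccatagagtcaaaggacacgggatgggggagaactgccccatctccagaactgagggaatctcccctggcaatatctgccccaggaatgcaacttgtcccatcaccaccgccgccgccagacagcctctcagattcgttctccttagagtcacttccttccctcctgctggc
Cldn11 (chr3:31149670-31149919, plus strand): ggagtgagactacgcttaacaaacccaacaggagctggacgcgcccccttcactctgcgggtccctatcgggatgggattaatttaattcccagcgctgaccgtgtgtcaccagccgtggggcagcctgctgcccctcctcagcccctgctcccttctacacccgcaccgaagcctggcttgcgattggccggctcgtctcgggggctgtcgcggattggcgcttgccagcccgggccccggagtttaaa

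The MYRF letters occurred before Mog as GTACCAG at bases -83 to -77 from the start, before Cnp as CTGGCAC at -81 to -75, and before Mag as CTGGCAC at -68 to -62 or -9 to -3, counted from 2 of its 3 starts. That was 3 of 7 members, against 6.794% of all 27025 genes with at least 1 window of this length (5.927% of all 32851 windows). The SOX core occurred before 5 of 7 members, Cnp, Mag, Mobp, Mog and Opalin, against 39.89% of genes (36.32% of windows). Mobp held 6 copies of it, all on the strand opposite to the gene. Neither set of letters was found in the windows of Mal and Cldn11. A match is a run of letters and not a measured binding site.

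The libraries differed in kind, and the difference followed the groups. Each held 20336250 to 71463928 UMIs, and 138000 of 139924 barcodes passed the filters on genes and mitochondrial reads. No 2 libraries shared more than 29 barcodes, and no pair more than 0.3665% of those of the smaller library. In PFC, the SPF and CGF libraries had 2895 to 3692 UMIs per nucleus and 1.20% to 2.41% of their UMIs on Gm42418, a transcript that overlaps ribosomal RNA. The GF libraries of PFC had 7479 to 8289 UMIs per nucleus and at most 0.0189% on Gm42418. Malat1 took 6.32% to 7.32% of UMIs in GF libraries of both regions and 2.91% to 3.87% in the others. In PFC, germ-free state and kind of library therefore cannot be told apart. The same holds in Hip, where signs of library kind move with the same group. Besides Malat1, Gm42418 was 0.0230% to 0.0320% in GF Hip and 0.0575% to 0.172% in the other Hip libraries. The mitochondrial share was 0.645% to 1.10% in GF Hip and 0.0770% to 0.471% in the others, while in PFC it was 0.359% to 0.594% in GF mice and 1.28% to 3.22% in the others. These signs also differed between the regions of SPF and CGF mice, where region and kind of library cannot be told apart. The part of these signs in the results was not tested. The study's table of samples lists the barcode counts of GF mice 6 and 7 the other way round in both regions, so that a value given for either may belong to the other, which leaves groups and pairs as they are. The labels do not say how many extractions or runs were made, and *P* values measure the spread between mice of a group.

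The label oligodendrocyte was checked against markers, and in Hip part of the gated nuclei went against it. A UMI of Prr5l was present in 41.9% to 66.5% of the St18-gated nuclei of a Hip library and in 80.4% to 87.1% of those of a GF PFC library, 59.2% to 67.1% for SPF PFC and 59.3% to 66.4% for CGF PFC. The share in PFC thus moved with the group, and its part in the PFC results was not tested. In Hip, the 3937 St18-gated nuclei with no Prr5l UMI had medians of 4587 to 7820 UMIs, against 1912 to 2893 in those with one. Their Mbp level was 1.63 to 3.69 UMIs per 10000 UMIs, their Mog level 0.0901 to 0.862 and their Myrf level 0.0540 to 0.140. In PFC nuclei of the same description Mbp was 21.2 to 36.5. A list of 6 dentate granule neuron genes summed to 16.0 to 20.9 UMIs per 10000 in those Hip nuclei, and to 4.51 to 9.35 in the St18-gated Hip nuclei with a Prr5l UMI. In St18-gated Hip nuclei without Prr5l, a list of 8 excitatory neuron genes summed to 95.7 to 115 UMIs per 10000. A list of 9 oligodendrocyte genes summed to 23.1 to 28.7 there. Over the whole St18 gate of Hip, the excitatory list was 71.6 to 81.1 in GF mice. In SPF and CGF mice it was 85.0 to 91.0 and 86.4 to 96.8, and its part in the results was not tested. The St18 gate of Hip thus mixed nuclei rich and poor in myelin transcripts. In sums over it a change of the mixture and a change of the level cannot be told apart.

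**Figure D1:**
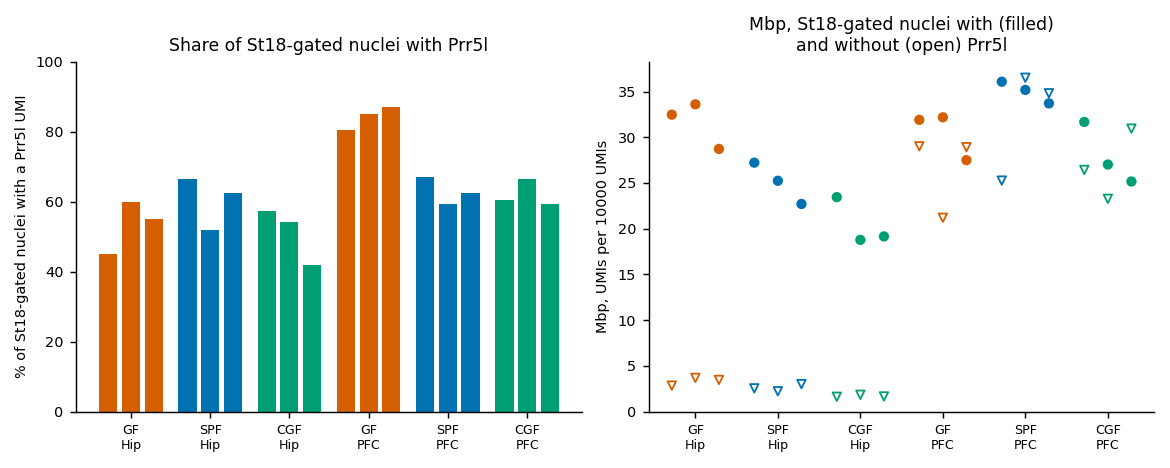
The plot of gate composition shows, on the left, the percentage of St18-gated nuclei with a Prr5l UMI in each library and, on the right, Mbp in UMIs per 10000 UMIs in St18-gated nuclei with and without a Prr5l UMI, 1 point per library. Mbp of Hip nuclei without Prr5l sits between 1.63 and 3.69, below all other points.

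A further pair of gates was therefore read beside it. The Prr5l gate asked for at least 2 Prr5l UMIs in place of St18 and held 4520 Hip and 1392 PFC nuclei. The double gate asked for at least 2 St18 UMIs and 1 Prr5l UMI and held 4721 Hip and 1543 PFC nuclei. Of the oligodendrocyte markers that are neither gate genes nor among the 9 genes, the median in Hip was 0.388 UMIs per 10000 in the St18 gate and 1.11 in the double gate for Ermn, 9.74 and 18.8 for Pex5l, and 14.0 and 25.5 for Dock10. Endothelial genes were the weak point of the Prr5l gate. In PFC the list of 5 summed to 3.40 to 8.87 UMIs per 10000 in the Prr5l gate of GF mice and to 11.1 to 21.1 in that of SPF mice, and to at most 3.82 in the double gate. Within the double gate, the excitatory list of 8 genes summed to 33.3 to 41.8 UMIs per 10000 in Hip of GF mice, and to 41.5 to 54.4 and 39.6 to 54.7 for SPF and CGF mice. The astrocyte list of 7 genes was 8.13 to 8.86 in GF Hip, below the 12.6 to 14.7 of SPF and 12.7 to 15.8 of CGF mice. The granule neuron list was 4.51 to 5.48 in GF Hip, below the 7.07 to 9.35 of SPF and 6.81 to 8.08 of CGF mice. The choroid plexus list of 5 genes reached 67.5 in the library of GF mouse 6, nearly all of it Ttr (66.9), and at most 17.1 in the other Hip libraries. In PFC, the interneuron list of 6 genes was highest in GF mice, at 28.7 to 29.5, with SPF mice at 9.58 to 16.0 and CGF mice at 9.91 to 14.4. Most of it was Erbb4, a neuregulin receptor gene that oligodendrocytes also use, at 26.1 to 27.2 in GF mice. The part of these genes in the results below was not tested. In such sums, fewer oligodendrocytes in a gate and less RNA of a gene per oligodendrocyte cannot be told apart.

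The 9 genes were highest in oligodendrocytes in every library, but traces appeared in all other cells. The median Mog level was 6.51 UMIs per 10000 in Prr5l-gated nuclei of Hip and 0.0363 in excitatory neurons of Hip. In PFC the same levels were 3.02 and 0.0217. The median ratio between Prr5l-gated nuclei and excitatory neurons of the same library was highest for Mog, at 183 in Hip and 177 in PFC, and lowest for Cnp, at 10.5 and 22.7. Mobp gave 164 and 115, Mag 128 and 143, Opalin 96.0 and 167, and Mbp 36.4 and 41.7. For Myrf it was 28.8 and 65.5, for Cldn11 34.3 and 73.6, and for Mal 29.4 and 75.6. Median Mbp levels of Hip were 0.806 UMIs per 10000 in oligodendrocyte precursor cells (OPC), which do not yet make myelin, 0.759 in astrocytes, 0.752 in microglia and 0.391 in interneurons. The trace was thus present in cells with and without an oligodendrocyte lineage. Mbp transcripts were the most widespread trace. A median of 42.0% of excitatory nuclei of Hip held an Mbp UMI, with a median depth of 8504 UMIs, against 96.9% of Prr5l-gated nuclei with 2288. After thinning every nucleus to 500 UMIs these shares were 3.73% and 67.2%. In PFC they were 24.6% and 88.8% before thinning, and 3.43% and 72.1% after it. A share of nuclei with an Mbp UMI must be read beside that in excitatory neurons. Mean Mbp per nucleus was 0.685 UMIs in excitatory neurons and 0.297 in astrocytes of Hip, and 0.512 and 0.126 in PFC. Excitatory nuclei were also deeper. Whether the Mbp UMIs of excitatory neurons are their own or come from other cells was not tested.

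**Figure D2:**
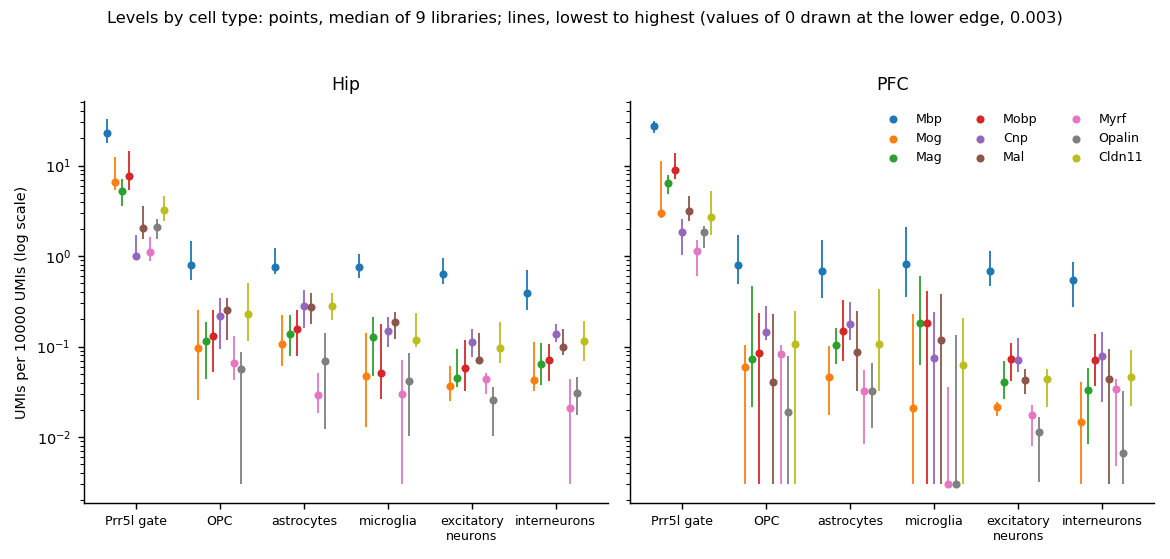
The plot of levels by cell type gives, for each of the 9 genes, the median over 9 libraries per region in UMIs per 10000 UMIs on a log axis, with lines from the lowest to the highest library and 0 drawn at the bottom of the axis. Oligodendrocytes stand at the top of every panel, with Mog in Prr5l-gated nuclei of Hip at a median of 6.51 against 0.0363 in excitatory neurons.

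Levels were set between genes per kilobase of exon, pooled over the 18 Prr5l-gated sums of all groups. Mog (median 3.39 UMIs per 10000 per kb, range 1.55 to 7.22) and Mbp (3.07, range 2.08 to 3.82) had the highest pooled medians. Cldn11 (1.63), Mag (1.38), Mobp (1.25) and Mal (1.11) formed the middle, followed by Opalin (0.664) and Cnp (0.348). Myrf was the lowest at 0.130, with a range of 0.0710 to 0.189 that did not reach the lowest value of any other member. Per kilobase of gene span the order of pooled medians changed, with Mog (0.457) ahead of Mag (0.359), Mobp (0.269) and Mbp (0.236), and Myrf (0.0344) again lowest. Undivided group means of Mog ran from 2.77 UMIs per 10000 in SPF PFC to 10.7 in GF Hip, so that its place depended on the group. These counts come from nuclei, where unspliced transcripts and 3′ priming weigh in, and the order is one of UMIs divided by length. Undivided, the Prr5l-gated means of SPF Hip were 23.8 UMIs per 10000 for Mbp, 7.93 for Mobp and 5.88 for Mog. Myrf (1.16) lay above Cnp (0.978) there.

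Myrf was also compared in OPC with astrocytes of the same mice as the background. OPC gates held 981 Hip and 1173 PFC nuclei. In Hip, Myrf was 0.0319 ± 0.0131 UMIs per OPC nucleus and 0.0120 ± 0.00468 per astrocyte nucleus (SD, n = 9), higher in 9 of 9 mice (exact sign-flip test, two-sided *P* = 0.00391, the smallest it allows, adjusted *P* = 0.0352 over 18 tests). In PFC it was higher in 7 of 9 mice (exact sign-flip test, adjusted *P* = 0.141). Mbp was 0.187 ± 0.0630 per OPC nucleus and 0.126 ± 0.0404 per astrocyte nucleus in PFC, higher in 9 of 9 mice (exact sign-flip test, adjusted *P* = 0.0352). As UMIs per 10000 UMIs, 0 of 18 tests passed, and Myrf in Hip remained higher in 9 of 9 mice (0.0820 against 0.0332, adjusted *P* = 0.0703 by the exact sign-flip test). Against excitatory neurons of Hip, Mbp per nucleus was lower in OPC in 9 of 9 mice by 0.349 UMIs (exact sign-flip test, adjusted *P* = 0.0352), where the median depth was 3238 UMIs in OPC and 8504 in excitatory neurons. Per 10000 UMIs the direction turned, with a median of 0.806 in OPC and 0.642 in excitatory neurons.

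**Figure D3:**
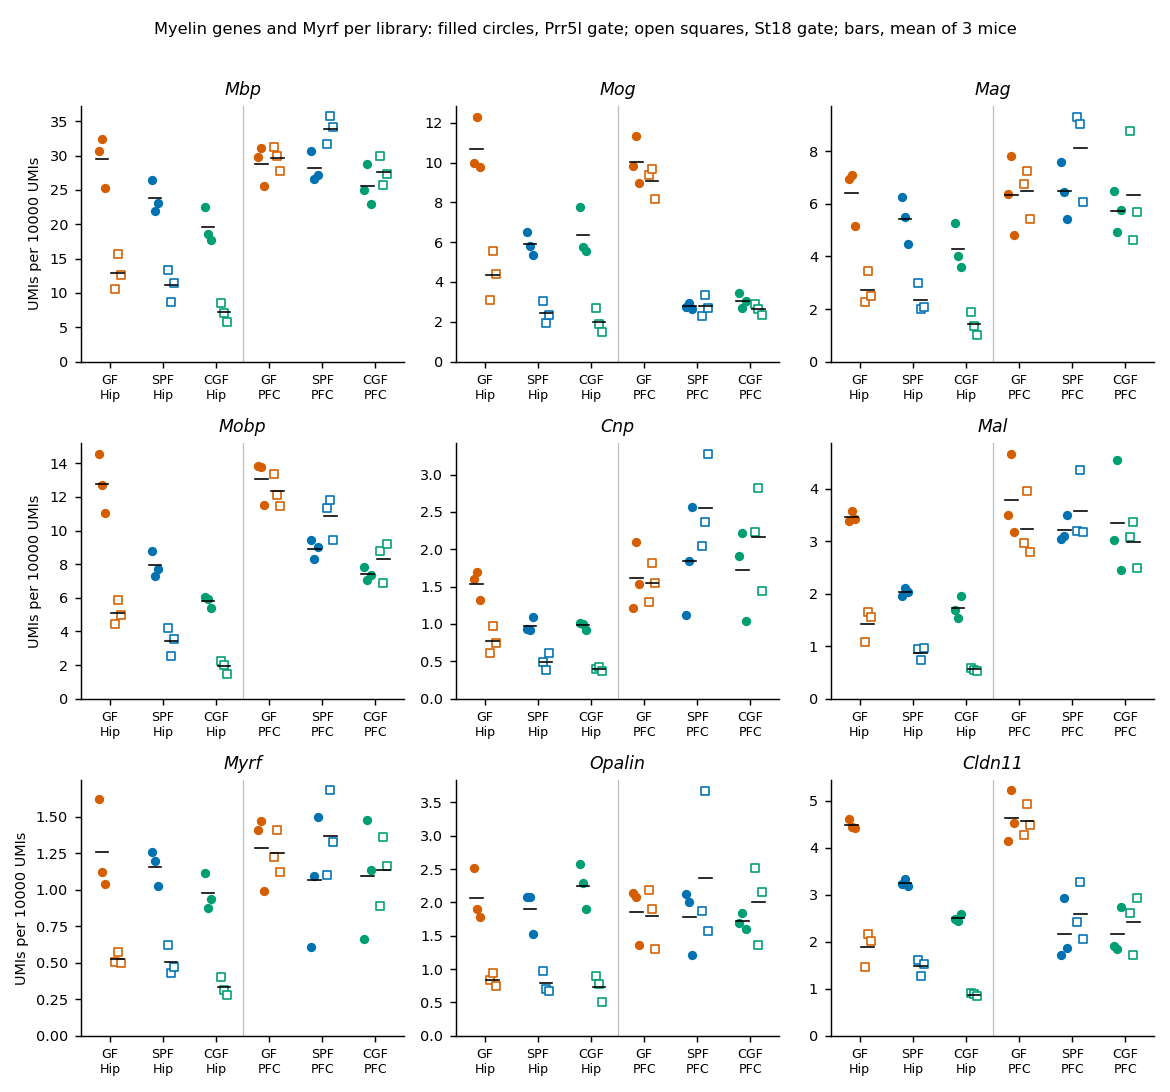
The plot of levels by library shows UMIs per 10000 UMIs for each gene in the 3 mice of each group and region, filled circles for the Prr5l gate, open squares for the St18 gate and bars for the mean of 3 mice. Mog in PFC shows 8.16 to 9.66 in GF mice and 2.31 to 3.36 in SPF mice under the St18 gate.

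The order of the 6 groups depended on the gate. Under the St18 gate, the mean of every PFC group was above that of every Hip group for 8 genes. The ranges of the lowest PFC and the highest Hip group overlapped for Cldn11. Between regions 27.7% to 39.2% of all genes were called under this gate, and how many shared this order was not counted. Mog alone was ordered otherwise, with GF PFC (9.07 UMIs per 10000) first and GF Hip (4.35) second, the latter overlapping with SPF PFC (2.79). Under the Prr5l gate neighbouring groups overlapped throughout for Mbp, Mag, Myrf and Opalin. Mag means ran there from 6.49 in SPF PFC to 4.29 in CGF Hip, Opalin means from 2.25 in CGF Hip to 1.71 in CGF PFC and Myrf means from 1.29 in GF PFC to 0.976 in CGF Hip. Mog formed 3 steps without overlap, GF Hip and GF PFC (10.7 and 10.0), CGF Hip and SPF Hip (6.34 and 5.88), then CGF PFC and SPF PFC (3.06 and 2.77). Mal had both non-GF groups of Hip at the bottom, below a gap. Cnp had the same groups at the bottom by their means, with SPF Hip (0.919 to 1.09) overlapping with CGF PFC (from 1.04).

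In Hip of GF mice, as against SPF mice, 4 of the 9 genes were higher under all 3 gates: Mog, Mal, Cnp and Mobp. All 9 passed the filter on low counts in every comparison. Under the St18 gate, 37.2% of all 13816 genes tested passed the threshold (adjusted *P* under 0.05), 23.2% under the Prr5l gate and 31.9% under the double gate, so that the 4 of 9 called under the St18 gate were near the background. Under the Prr5l gate 5 of 9 and under the double gate 6 of 9 were called, a larger share than the background. Mog was 3.11, 5.56 and 4.40 UMIs per 10000 in GF mice 5, 6 and 7, and 3.06, 1.94 and 2.36 in SPF mice 30, 31 and 32. In the double gate its values were 10.8, 12.6 and 11.1 for GF mice and 6.78, 6.45 and 5.20 for SPF mice. The groups lay side by side with the first gate and well apart with the second. Mog was 1.68-fold higher in GF mice by edgeR's quasi-likelihood test (log2 difference 0.75, SE 0.23, adjusted *P* = 0.0248), with log2 differences of 0.91 and 0.94 under the Prr5l and double gates.

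Mal was 1.07, 1.65 and 1.55 UMIs per 10000 in GF Hip and 0.939, 0.728 and 0.968 in SPF Hip. Under the double gate its GF values were 3.63, 3.66 and 3.82 and its SPF values 1.97, 2.15 and 2.02. The 3 mice of each group lay close together there, and the groups did not overlap under either gate. The difference was 1.54-fold under the St18 gate (log2 0.62, SE 0.15, adjusted *P* = 0.00661) and 1.86-fold under the double gate (log2 0.90, SE 0.12). Cnp was 0.615, 0.969 and 0.746 in GF Hip and 0.494, 0.380 and 0.611 in SPF Hip (log2 0.58, SE 0.17, adjusted *P* = 0.0207). Mobp was 4.46, 5.89 and 4.96 in GF Hip and 4.18, 2.54 and 3.53 in SPF Hip (log2 0.51, SE 0.18, adjusted *P* = 0.0456). For both genes the lowest GF mouse lay just above the highest SPF mouse. Under the double gate the log2 differences were 0.71 for Cnp and 0.74 for Mobp. Per nucleus, log2 ratios under the St18 gate were smaller, at 0.50 for Mog, 0.37 for Mal, 0.31 for Cnp and 0.27 for Mobp.

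The other 5 genes were less even. Cldn11 gave 0.28 (SE 0.13, adjusted *P* = 0.121) under the St18 gate, and 0.52 under each of the Prr5l and double gates, where it passed the threshold. Mbp gave 0.14 (SE 0.18, adjusted *P* = 0.589) under the St18 gate and passed only under the double gate, at 0.37. Per nucleus, Mbp was 4.84 UMIs in GF and 5.23 in SPF Hip under the St18 gate, and 7.57 and 7.40 under the double gate. The log2 ratio per nucleus of Cldn11 was 0.03 under the St18 gate. Mag gave 0.15 (SE 0.22), Opalin 0.03 (SE 0.20) and Myrf -0.02 (SE 0.16), and none of these passed under any gate. Per nucleus, their log2 ratios under the St18 gate were -0.10, -0.21 and -0.25. Myrf was 0.507, 0.570 and 0.501 UMIs per 10000 in GF Hip and 0.622, 0.432 and 0.469 in SPF Hip, with the SPF mice on both sides of the GF mice. The share of St18-gated nuclei with a Prr5l UMI was 45.0% to 59.9% in GF Hip and 51.9% to 66.5% in SPF Hip. The St18 calls leaned on single mice. Without GF mouse 6 or SPF mouse 31 the count was 1 in place of 4, and 2 without GF mouse 7 or SPF mouse 32. Mal remained in every case, while under the Prr5l gate 5 genes were called whichever mouse was left out. With the dependence of each library on length and GC content of genes taken out by an offset, 1 of 9 was called (Mal at 0.51), beside 20.1% of all genes. Mobp then gave 0.51, Mog 0.44 and Cnp 0.38, and these did not pass. In Hip the library of a GF mouse differed in Malat1, Gm42418 and mitochondrial share from those of the other groups, as given above.

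In Hip of GF mice as against CGF mice, 7 genes were higher under all 3 gates: Mbp, Mog, Mag, Mobp, Cnp, Mal and Cldn11. Of all genes, a smaller share was called, 41.3% under the St18 gate, 26.6% under the Prr5l gate and 35.9% under the double gate. This comparison shares its GF libraries with the one before. Mobp was 2.24, 2.02 and 1.48 UMIs per 10000 in CGF mice 17, 18 and 19, each below every GF and SPF mouse of Hip, and 2.41-fold higher in GF mice (log2 1.27, SE 0.19, adjusted *P* = 0.000251). Mal was 0.589, 0.554 and 0.528 in CGF mice and 2.30-fold higher in GF mice (log2 1.20, SE 0.15, adjusted *P* = 9.24e-05). Cldn11 was 0.906, 0.883 and 0.836 in CGF mice against 1.46, 2.17 and 2.02 in GF mice (log2 0.95, SE 0.13, adjusted *P* = 0.0002). In the double gate the CGF values of Cldn11 were 2.53, 2.41 and 2.78 and the GF values 4.78, 4.74 and 4.89. The groups did not meet under either gate.

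Mog (log2 0.97), Cnp (0.81), Mag (0.79) and Mbp (0.71) completed the 7 under the St18 gate, and were 0.80, 0.75, 0.64 and 0.62 under the double gate. Mog and Mag were each called in 10 of 11 alternative settings, with lowest values of 0.61 and 0.48, and the others of the 7 in 11 of 11. Mbp was 8.57, 7.13 and 5.79 UMIs per 10000 in CGF Hip and 10.6, 15.7 and 12.6 in GF Hip. Of the 3 gates, Myrf passed under the St18 gate alone, at 0.53 (SE 0.16, adjusted *P* = 0.0196), with 0.401, 0.315 and 0.275 UMIs per 10000 in CGF mice. That call was lost without GF mouse 6, CGF mouse 18 or CGF mouse 19, and under the Prr5l and double gates Myrf gave 0.39 and 0.45. Opalin did not pass under any gate (0.06, SE 0.20, under the St18 gate). Mag was lost without GF mouse 6, and under the Prr5l gate without GF mouse 5 or 6 or CGF mouse 18 or 19. Mbp was lost under the Prr5l gate without GF mouse 6.

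In Hip of CGF mice as against SPF mice, 0 of 9 genes passed under the St18, Prr5l or double gate by edgeR, where 0.470% of genes passed under the St18 gate, 0.0424% under the Prr5l gate and 0.170% under the double gate. All 9 log2 differences were negative under the St18 gate. The values furthest from 0 were -0.76 for Mobp (SE 0.18, adjusted *P* = 0.107), -0.68 for Cldn11 (SE 0.13, adjusted *P* = 0.0509), -0.65 for Mag and -0.58 for Mal. Under the double gate they were -0.42, -0.38, -0.33 and -0.27. At an unadjusted *P* under 0.05, 6 of 9 genes passed under the St18 gate, 2 under the Prr5l gate and 3 under the double gate, beside 14.3%, 6.60% and 9.08% of all genes. DESeq2 called 3 genes lower under the St18 gate, where it called 1.11% of all genes. With no neuronal UMI allowed in a nucleus, edgeR called the same 3, Mobp (-0.80), Mal (-0.64) and Cldn11 (-0.68), and 0.589% of all genes. With no filter on low counts 6 of 9 were called lower, those 3 with Mag, Mbp and Myrf, beside 1.62% of all genes. Every CGF mouse lay below every SPF mouse for these 6 genes under the St18 gate, as for 13.7% of the genes tested, and for Mobp and Cldn11 under the Prr5l gate, as for 6.95% of the same genes. Cldn11 was called in 5 of 11 alternative settings. Of the fits without a single mouse, those without GF mouse 5 or SPF mouse 31 called 2 genes and that without GF mouse 6 called 1. The share of St18-gated nuclei with a Prr5l UMI was 41.9% to 57.3% in CGF Hip and 51.9% to 66.5% in SPF Hip, and its part in these values was not tested.

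In PFC of GF mice as against SPF mice, Mog and Cldn11 were higher under all 3 gates. The background was 36.7% of 6353 genes under the St18 gate, 30.6% under the Prr5l gate and 33.8% under the double gate, so that the count of members, 3 of 9 under the St18 gate, was near it. Mog was 9.39, 9.66 and 8.16 UMIs per 10000 in GF mice and 2.31, 3.36 and 2.68 in SPF mice, which is 9.07 ± 0.800 and 2.79 ± 0.530 (SD, n = 3). The groups were far apart and did not overlap. The SPF values rest on 42, 74 and 77 UMIs, and the GF values on 844, 680 and 830. Mog was 3.32-fold higher in GF mice (log2 1.73, SE 0.17, adjusted *P* = 5.7e-09), with log2 differences of 1.93 under the Prr5l gate and 1.64 under the double gate. It passed in 11 of 11 alternative settings, at 1.58 to 2.13.

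Cldn11 was 4.27, 4.93 and 4.47 UMIs per 10000 in GF PFC and 2.42, 3.27 and 2.06 in SPF PFC. All GF mice lay above all SPF mice, by 1.82-fold (log2 0.86, SE 0.19, adjusted *P* = 0.000592). It passed in 11 of 11 alternative settings, at 0.73 to 1.26. Cnp went the other way per 10000 UMIs under the St18 gate, though not per nucleus, as given with the interaction. It was 1.29, 1.82 and 1.55 in GF PFC and 2.04, 2.36 and 3.28 in SPF PFC, again with no overlap (log2 -0.72, SE 0.22, adjusted *P* = 0.0102). Under the double gate it was lower as well, at -0.78, but under the Prr5l gate it gave -0.18 and did not pass. The Cnp call was lost without GF mouse 5 or SPF mouse 32, and held in 7 of 11 alternative settings.

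The remaining 6 genes of PFC gave log2 differences of -0.35 to 0.22 under the St18 gate. Mobp, at 0.22 (SE 0.15, adjusted *P* = 0.259), passed under the Prr5l gate, at 0.62, where the endothelial list also differed between the groups, as given above, and not there without SPF mouse 31. It also passed with at least 1 St18 UMI (0.64) and with the length and GC trend removed (0.47), and in no other of 11 alternative settings. Mbp was 31.2, 29.9 and 27.8 UMIs per 10000 in GF PFC and 31.7, 35.7 and 34.2 in SPF PFC, with every GF mouse slightly below every SPF mouse (log2 -0.16, SE 0.14, adjusted *P* = 0.405). Per nucleus Mbp was 7.91 UMIs in GF and 4.06 in SPF PFC, and the negative values of Mag, Mal, Myrf and Opalin likewise turned, with log2 ratios per nucleus of 0.82, 1.01, 1.03 and 0.75, where GF nuclei were deeper. Myrf was 1.22, 1.41 and 1.12 in GF PFC and 1.10, 1.68 and 1.32 in SPF PFC (log2 -0.11, SE 0.21, adjusted *P* = 0.708). Mag (-0.28), Mal (-0.11) and Opalin (-0.35) likewise did not pass under any gate. In PFC the library of a GF mouse differed in depth, Gm42418 and Erbb4 from those of the other groups, as given above.

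In PFC of GF mice as against CGF mice, Mog, Cldn11 and Mobp were higher under all 3 gates, with a background of 38.5% under the St18 gate, 34.2% under the Prr5l gate and 40.1% under the double gate. The GF libraries are those of the comparison before. Mog was 2.89, 2.66 and 2.32 UMIs per 10000 in CGF mice, and 3.49-fold higher in GF mice (log2 1.80, SE 0.17, adjusted *P* = 2.98e-09). Cldn11 was 2.61, 1.72 and 2.93 in CGF mice (log2 0.97, SE 0.19, adjusted *P* = 0.000178). Mobp was 8.81, 6.88 and 9.19 in CGF mice and 13.4, 12.1 and 11.5 in GF mice (log2 0.61, SE 0.15, adjusted *P* = 0.00255). For all 3 genes the groups did not overlap, and the share of all genes without overlap was not counted. The 3 of 9 called under each gate were not above the background. The other 6 genes gave -0.51 to 0.13, with Cnp at -0.51 (SE 0.22, adjusted *P* = 0.068). Per nucleus the Cnp direction turned here as well, with 0.416 UMIs in GF and 0.271 in CGF PFC.

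In PFC of CGF mice as against SPF mice, 0 of 9 genes passed under any gate by edgeR or, under the St18 gate, by DESeq2. The background was 0.126% of genes under the St18 gate, 0.0270% under the Prr5l gate and 0.275% under the double gate. At an unadjusted *P* under 0.05, 1 gene passed under the St18 gate, 0 under the Prr5l gate and 2 under the double gate, beside 8.07%, 6.86% and 8.27% of all genes. DESeq2 called 0.110% of all genes. Differences under the St18 gate ran from -0.39 for Mobp (SE 0.16) to -0.07 for Mog (SE 0.20).

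**Figure D4:**
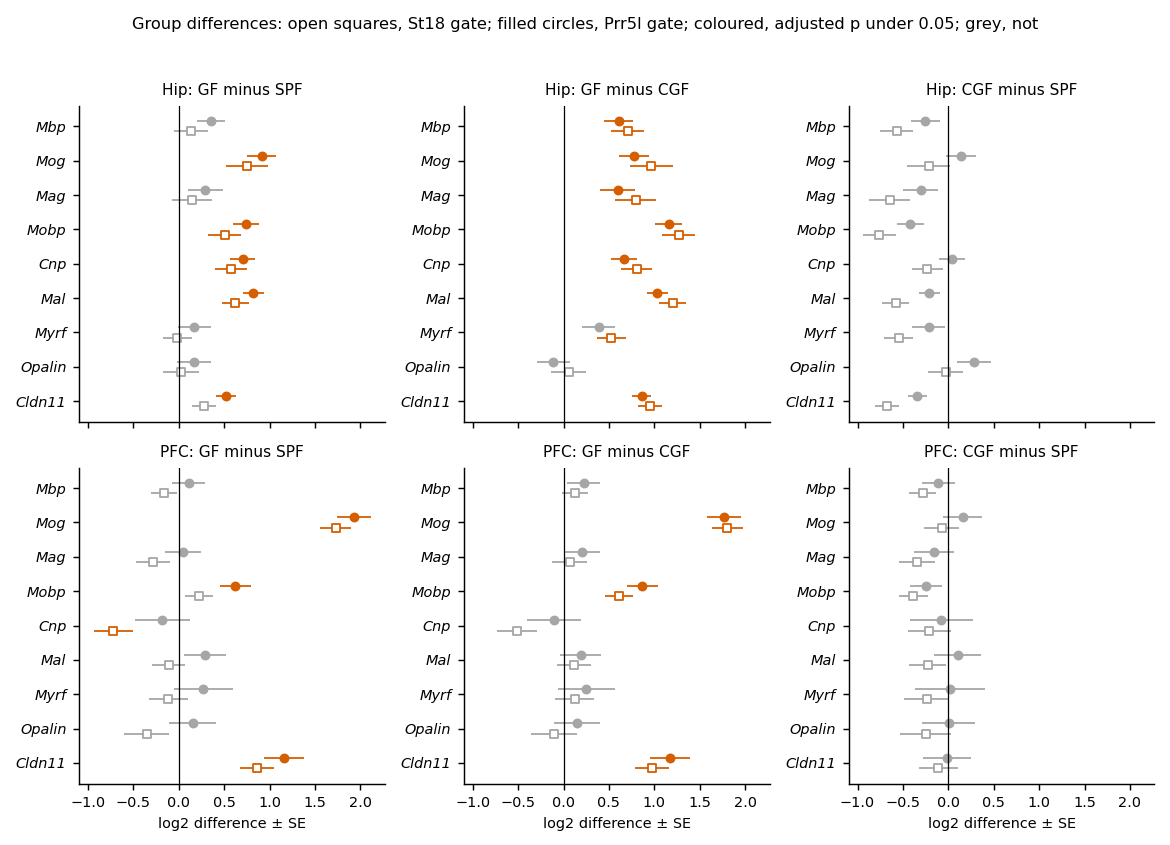
The plot of group differences shows the log2 difference and its SE for each of the 9 genes in 6 panels, 3 group comparisons in each region, with open squares for the St18 gate, filled circles for the Prr5l gate and grey where the threshold was missed. Mog in PFC stands at 1.73 against SPF mice and 1.80 against CGF mice under the St18 gate, above every other gene.

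Hip and PFC of the same mice were compared next, with the mouse number left out of the main test. Under the St18 gate, 9 of 9 genes in GF mice were lower in Hip than in PFC, with log2 differences of -1.20 to -0.92. In SPF and in CGF mice it was 8 of 9, all except Mog. These are differences per UMI. Gated nuclei of PFC were shallower in SPF mice, with medians of 853 to 981 UMIs against 2911 to 3657 in Hip. Per nucleus Mbp of SPF mice was 5.23 in Hip and 4.06 in PFC. Mag, Mobp, Myrf, Opalin and Cldn11 of SPF mice likewise turned per nucleus. Cnp (0.233 in Hip, 0.306 in PFC) and Mal (0.412 and 0.428) did not. In CGF mice Mbp, Myrf, Opalin and Cldn11 turned per nucleus, and Mag, Mobp, Cnp and Mal did not. Cldn11 of SPF mice passed in both directions, lower in Hip at -0.58 under the St18 gate (lost without SPF mouse 31, at -0.31) and higher at 0.68 under the Prr5l gate (lost without SPF mouse 30 or 32). The background was 27.7% of genes for GF mice, 35.2% for SPF mice and 39.2% for CGF mice. Under the Prr5l gate 0 of 9 genes passed in GF mice by edgeR (0 at an unadjusted *P* under 0.05), where 0.825% of genes passed (8.81% unadjusted), and under the double gate 0 of 9 (again 0), where 2.19% passed (11.5% unadjusted). The regional difference of GF mice was thus present with the St18 gate and not with the Prr5l and double gates. By the definition of the gates, nuclei without Prr5l were in the first alone, and their part in this was not tested.

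A pair of regional differences per 10000 UMIs passed under all 3 gates, at sizes that differed with the gate. Cnp of SPF mice was lower in Hip under all 3 gates, at -2.19, -0.86 and -1.42 for the St18, Prr5l and double gates. Per nucleus the direction turned under the Prr5l gate, with 0.301 UMIs in Hip and 0.223 in PFC. Under the double gate the values were 0.311 and 0.316. Mal of CGF mice was lower in Hip under all 3 gates, at -2.15, -0.91 and -1.03. Per nucleus Mal turned as well under the Prr5l gate, with 0.501 UMIs in Hip and 0.453 in PFC, and was 0.465 and 0.476 under the double gate. Under the Prr5l gate Cnp was lost without CGF mouse 17, SPF mouse 31 or SPF mouse 32 (-0.83, -0.86 and -0.54), and Mal without CGF mouse 18 (-0.47). The count of 3 called there in SPF mice was 1 without SPF mouse 32, and that of 2 in CGF mice was 1 without CGF mouse 18. Mog stood apart from the rest. It gave 0.03 in SPF mice and -0.11 in CGF mice under the St18 gate, and was higher in Hip under the Prr5l gate, at 1.19 and 1.15, and under the double gate, at 0.91 and 1.25. Under the double gate Mog was 6.78, 6.45 and 5.20 UMIs per 10000 in Hip of SPF mice and 3.15, 3.63 and 3.51 in their PFC, while GF mice had 10.8, 12.6 and 11.1 in Hip against 10.3, 11.4 and 9.60 in PFC. The 3 GF mice had alike levels in both regions and the 3 SPF mice did not. In SPF and CGF mice, region and kind of library cannot be told apart. Gm42418 was at most 0.172% of UMIs in SPF Hip and at least 1.20% in SPF PFC. In GF mice it was at most 0.0320% in either region. The background was 15.1% of genes in SPF and 17.7% in CGF mice under the Prr5l gate, and 18.9% and 22.9% under the double gate. Median log2 differences of all genes in these fits were 0.141 in SPF and 0.100 in CGF mice under the St18 gate, so that values are to be read against that shift.

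**Figure D5:**
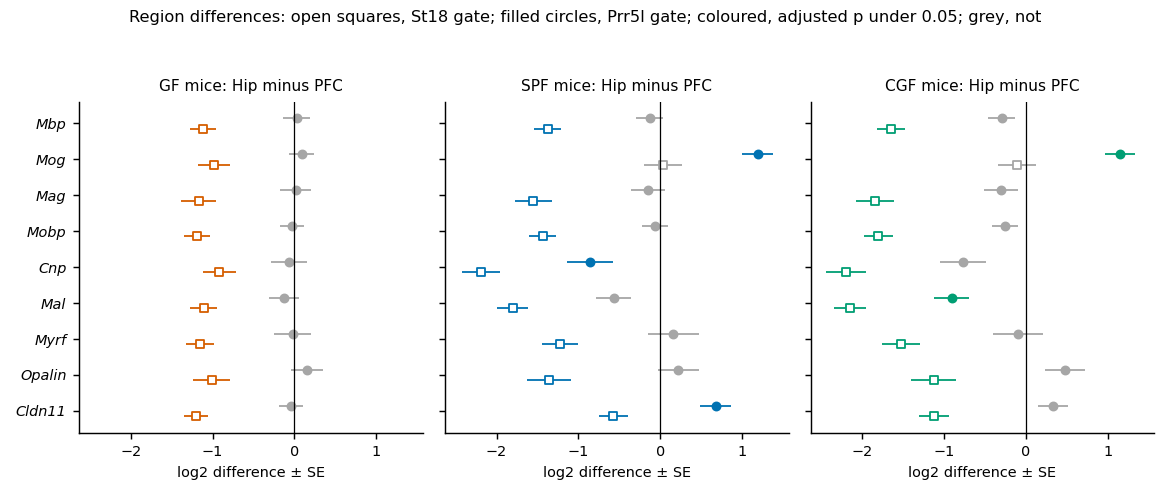
The plot of regional differences shows the log2 difference, Hip minus PFC, and its SE for each gene in GF, SPF and CGF mice, with open squares for the St18 gate, filled circles for the Prr5l gate and grey where the threshold was missed. In GF mice the St18 gate gives -1.20 to -0.92 for the 9 genes, while the Prr5l gate stays between -0.13 and 0.16.

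Whether the GF and SPF difference itself differed between regions was tested as an interaction, PFC minus Hip. Under the St18 gate 15.9% of genes passed, under the Prr5l gate 7.53% and under the double gate 11.0%, beside 2, 1 and 3 of the 9. The 2 of 9 under the St18 gate were near the background. Mog passed under all 3 gates, at 1.02 (SE 0.30, adjusted *P* = 0.0201), 1.10 and 0.78, its GF excess being larger in PFC. Without GF mouse 5, GF mouse 7 or SPF mouse 30 the Mog call was lost under the St18 gate, at 0.74, 1.03 and 0.72, and under the Prr5l gate it was lost without SPF mouse 30, at 0.95. Cnp passed under the St18 gate at -1.27 (SE 0.30, adjusted *P* = 0.00493) and the double gate at -1.42, and gave -0.80 under the Prr5l gate without passing. Its GF level per 10000 UMIs was higher in Hip and lower in PFC than the SPF level. Per nucleus the PFC direction turned, with 0.416 UMIs in GF and 0.306 in SPF mice, where the gated nuclei of GF mice were deeper (medians of 2058 to 2246 UMIs against 853 to 981). Mal gave -0.69 (adjusted *P* = 0.0549) under the St18 gate and passed under the double gate, at -1.03, and in 8 of 11 alternative settings. With the mouse as a block, the St18 gate gave 4 genes in place of 2, adding Mal (-0.69) and Cldn11 (0.64). The median of all genes in the interaction was 0.138.

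The levels of the 9 genes in excitatory neurons were fitted in the same way, and the source of these UMIs was not tested. In Hip, 0 of 9 differed between GF and SPF mice by edgeR (1 at an unadjusted *P* under 0.05, and 1 by DESeq2), where 43.7% of genes passed, 52.2% unadjusted and 43.2% by DESeq2. The count was 1 without CGF mouse 17, SPF mouse 30 or SPF mouse 32. The value furthest from 0 was -0.72 for Cldn11 (SE 0.28, adjusted *P* = 0.0628). In PFC, 61.7% of genes passed, and 5 of the 9. Mag was lower in GF mice at -0.79 (SE 0.20), as was Mobp at -0.72 (SE 0.21). Opalin was higher at 0.94 (SE 0.38), as were Cnp at 0.76 (SE 0.15) and Cldn11 at 0.44 (SE 0.17). Opalin was lost in 3 of 4 alternative settings and Cldn11 in 4 of 4, and the count of 5 was 3 without GF mouse 5 or 7 or SPF mouse 31 or 32, and 4 without any other mouse. Mog gave 0.27 (SE 0.20, adjusted *P* = 0.268), beside its 1.73 in St18-gated nuclei. In libraries thinned to equal depth it gave 0.65 and passed (adjusted *P* = 0.0472), and it did not in the other 3 alternative settings, at 0.12 to 0.28. Cnp was higher in excitatory neurons of GF mice and lower in St18-gated nuclei.

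Genes of the same pathway were read from 5 lists. Of 34 other myelin genes, 32 were tested in Hip, and 10 were higher and 3 lower in GF than in SPF mice under the St18 gate. Under the Prr5l gate 11 were higher and 0 lower. These counts and those of the other lists stand beside the 37.2% and 23.2% of all genes called under these gates, and 13 of 32 was near the former. Cryab, which encodes a small heat-shock chaperone, was at 1.77 (SE 0.25) under the St18 gate and 1.91 under the Prr5l gate. Gjb1, which encodes the connexin of myelin gap junctions, was at 1.25 and 1.72. The tetraspanin gene Cd9 was at 0.88 and 0.86. The list's median log2 difference was 0.04 and 0.26 under these gates, beside 0.01 and 0.00 for all genes. Of 17 lineage transcription factors, 2 were higher and 1 lower under the St18 gate, Sox8 at 0.97, Olig1 at 0.82 and Zeb2 at -0.46, with a list median of 0.38. Of 13 genes of mature oligodendrocytes 11 were tested, and 5 were higher and 0 lower, led by Ptgds, the prostaglandin D synthase gene, at 1.64 (SE 0.17), with a list median of 0.62. Under the Prr5l gate 7 were higher, with Ptgds at 2.24. Of 10 genes of newly formed oligodendrocytes, 3 were higher (Neu4 at 1.26, Bmp4 at 1.23 and Gpr17 at 1.07) and 1 lower under the St18 gate, and 0 were higher and 1 lower under the Prr5l gate, with medians of -0.05 and -0.26. Of 8 precursor genes, 0 were higher, and Lhfpl3 (-0.68) and Ptprz1 (-0.38) were lower, with a list median of -0.18.

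In GF as against CGF Hip, 16 of the other myelin genes were higher and 0 lower under the St18 gate, and 15 and 0 under the Prr5l gate, with medians of 0.50 and 0.31 beside 0.02 and 0.00 for all genes. Of all genes, 41.3% and 26.6% were called in this comparison. Cryab was at 2.33, Gjb1 at 1.66 and Cd9 at 1.63. Of the factors, 6 were higher and 1 lower, with Zfp488, a transcriptional repressor gene of the oligodendrocyte lineage, at 1.92 and Sox10, a partner of Myrf at myelin genes, at 1.10. Zfp488 was also the single factor called between CGF and SPF mice of Hip under the St18 gate, lower at -1.36 (SE 0.26). Of the mature genes 8 were higher and 0 lower, with a list median of 0.85.

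In PFC the lists of other myelin genes and of factors moved both ways. Of the other myelin genes 31 were tested, and 13 were higher and 6 lower in GF than in SPF mice under the St18 gate, and 14 and 3 of 28 under the Prr5l gate, with medians of 0.34 and 0.64 beside 0.00 for all genes. Of all genes, 36.7% and 30.6% were called. Cryab was at 2.59 (SE 0.25) and Fa2h, which encodes the fatty acid hydroxylase of myelin lipids, at 1.23. Tppp, a tubulin-binding protein gene, was lower at -1.04. Of 12 factors tested, 4 were higher and 4 lower, Sox10 at 1.38 and Nkx6-2, a homeobox gene of myelin assembly, at -1.61. Against CGF mice 14 of the other myelin genes were higher and 6 lower under the St18 gate, where 38.5% of all genes were called, with Pllp at -1.21. Sox10 was at 1.40 and Nkx6-2 at -1.85. Of 8 genes of newly formed oligodendrocytes tested, 6 were higher and 0 lower against CGF mice under the St18 gate, with a list median of 0.81. Under the Prr5l gate 2 of 7 were higher and 1 lower, where 34.2% of all genes were called. Against SPF mice 2 were higher and 1 lower under the St18 gate. Of 8 mature genes, 3 were higher and 1 lower against CGF mice under the St18 gate, and of 6 precursor genes 1 and 1.

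The genes whose level followed Myrf most closely were taken from all 18 St18-gated sums after each was centred on its group and region. Myrf itself and the summed other 8 members had a Pearson r of 0.537 in the St18 gate and 0.274 in the Prr5l gate. Grm3 (r = 0.878), Lpgat1 (0.856), Larp6 (0.848), Arap2 (0.836) and Tgfa (0.823) were nearest to Myrf among 11743 genes. Arhgap23 (0.953), Synj2 (0.931), Rffl (0.921), Pde8a (0.920) and Gal3st1 (0.914) were nearest to the summed myelin genes. The sums share their libraries, their depth and, in Hip, the mixture of nuclei in the gate. In the Prr5l gate, Nubpl (0.930), Zfp369 (0.876), Gal3st1 (0.875) and Tsc22d3 (0.872) were among the 5 nearest to Myrf, and Grm3, Lpgat1, Larp6, Arap2 and Tgfa were not. Nearest to the summed genes there were Cdk19 (0.826), Gstm7 (0.824), Trim59 (0.823), Prrc2c (0.822) and Kif13a (0.820). These values describe 18 sums and carry no test.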

How the data were processed

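Single-nucleus libraries (10x Genomics, 3′) of Hip and PFC were counted by the authors with Cell Ranger 3.1.0, per the file headers, on mouse genome mm10 with Ensembl annotation per the study's methods, after base calling with CASAVA 1.8 per the submitters' notes. The deposited values are raw UMI counts per gene and barcode, with no normalization. Labels differ on the chemistry version of the kit, and the strand setting of the counting is not given in the sources used here.

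Barcodes with at least 200 genes and at most 10% mitochondrial UMIs were kept. No doublet caller was run, and cells were gated rather than clustered. The St18 gate is given in the results, with the Prr5l gate beside it. The double gate, the list of granule neuron genes, and the repeats of the Prr5l gate without single mice and with the mouse as a block were added after seeing the data. Other types needed at most 1 St18 UMI and at least 2 UMIs of their own markers. The 9 genes and all lists were chosen with earlier results of these data known. All 9 genes are named in each comparison. Of each list at most 6 called genes with the largest absolute log2 difference are named. Likeness was Pearson's r of log2 CPM over 18 sums, with at least 200 UMIs per gene. Some genes that these rules would name are not reported here.

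Counts were summed per library and gate and tested with edgeR 4.0.16 (TMM scaling, filterByExpr, glmQLFTest, R 4.3.3), with a threshold of 0.05 on Benjamini-Hochberg adjusted P over all genes tested, where SE is the absolute log2 difference divided by the root of F. Fits of 1 region held its 9 libraries, and regional comparisons all 18. OPC and astrocytes were compared by a two-sided exact sign-flip test over 9 mice, adjusted over 18 tests, with SciPy 1.17.1, NumPy 2.4.6, pandas 2.3.3 and Python 3.11.15. Figures were drawn with matplotlib 3.10.9. Alternatives were DESeq2 1.42.0, other scaling, filters and gates, thinning, removal of a length and GC trend, single mice left out and a replicate block. Shares were also given after thinning to 500 UMIs, which left out no nucleus of the types shown. The steps were checked on simulated counts with 200 changed genes. Of 2-fold increases, 42% were called for GF against SPF in Hip, 26% in PFC and 4% in the interaction. Of 4-fold increases these shares were 98%, 98% and 50%. False calls were 4.49%, 2.56% and 0% of the calls. The simulation used the same spread for every gene. In the data far more genes were called, 5145 of 13816 in Hip, 2334 of 6353 in PFC and 2118 of 13297 in the interaction. The adjusted threshold is then less strict, so these shares do not measure the power for the 9 genes. Counting error and depth limit low genes most, above all in PFC of SPF and CGF mice.

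The mouse number pairs the regions, since both came from the same mouse. Deviations of the same mouse from the group means correlated between regions at r = 0.0106 to 0.122, each above its highest value with another mouse.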

Additional observations from a re-analysis of the deposited data

Results flagged for a closer look

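The difference between GF and SPF mice was tested for a change between regions, and 2 genes stood out under the St18 gate. For Mog the difference was larger in PFC by 1.02 on the log2 scale. For Cnp the PFC minus Hip value was -1.267, with GF mice above SPF mice in Hip and below them in PFC per 10000 UMIs, though not per nucleus. The part of library kind in either value was not tested, and in both regions it cannot be told apart from the group.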

How the results depend on the processing

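Counts of called genes out of 9 for Hip against PFC changed with the gate. The St18 gate gave 9 for GF, 8 for SPF and 8 for CGF mice, the Prr5l gate 0, 3 and 2, and the double gate 0, 5 and 4. Signs reversed with the Prr5l gate in GF mice for Mbp (0.027), Mog (0.087), Mag (0.015) and Opalin (0.16), in SPF mice for Myrf (0.16), Opalin (0.22) and Cldn11 (0.68), and in CGF mice for Mog (1.15), Opalin (0.48) and Cldn11 (0.33). With the double gate they reversed in GF mice for Mbp (0.044), Mog (0.13), Mag (0.054), Myrf (0.036) and Opalin (0.14), in SPF mice for Cldn11 (0.49), and in CGF mice for Mog (1.25), Opalin (0.40) and Cldn11 (0.18). The cause was not tested. Set against excitatory neurons in place of astrocytes, OPC gave -0.349 for Mbp and -0.00964 for Myrf in Hip and -0.325 for Mbp in PFC in UMIs per nucleus, but excitatory nuclei were deeper, and per 10000 UMIs the medians of OPC were the higher ones (0.806 against 0.642, 0.0659 against 0.0438 and 0.794 against 0.685). A further 175 sign changes concerned values called in neither setting.

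For GF against SPF in Hip (4 called) the count was 1 after removal of the length and GC trend, and 1 to 5 without single mice. For CGF against SPF in Hip (0) it was 3 with DESeq2, 1 with library size only, 6 with no filter, 3 with no neuronal UMI, 1 with the 6 libraries alone and 0 to 2 without single mice. For GF against CGF in PFC (3) it was 7 with at least 1 St18 UMI and 5 after the trend was removed. In excitatory neurons it was 1 with DESeq2 in Hip (0 to 1 without single mice), and in PFC 3 with DESeq2, library size only or thinning (3 to 4 without single mice). For OPC it was 0 per 10000 UMIs and 0 to 0 without single mice. With 8 mice the smallest P that the exact sign-flip test allows is larger, and the lowest adjusted P was 0.0703.

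The interaction (2) gave 4 with no filter, 1 with the Prr5l gate, 4 after the trend was removed and 1 to 3 without single mice. With the mouse as a replicate block it gave 4, and in the Prr5l gate the block added Cnp (-0.74) in CGF mice. The block changed no other call.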
